A study of Mus with 4 samples.

Results

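The E2F transcription factor genes E2f1 to E2f8 and the pocket protein genes Rbl1 and Rbl2 were examined in PPS-ICBR cells, a mouse cell line labelled as prostate cancer of C57Bl6 strain. The 10 genes were chosen by name, and every probe set that the platform annotation assigned to 1 of these symbols alone was kept, which gave 22 of the 45037 probe sets tested and 10 of the 18193 genes with a single symbol. Expression had been measured on 4 Affymetrix arrays with biotin-labelled material. In the vorinostat group (2 arrays) the cells, plated at 60% confluency, spent the night in 5 µM vorinostat dissolved in DMSO. In the control group (2 arrays) they spent it in the solvent alone, at 5 µL per 10 mL of medium. Both groups came from the same line, and the labels name no genotype for it and do not say whether the replicate arrays stem from different cultures. The p-values therefore reflect the scatter among these arrays alone, which may be technical. Vorinostat inhibits histone deacetylases, the enzymes that remove acetyl groups from histones and other proteins, and the comparison asks which transcripts differ between cells kept with it and cells kept with its solvent.

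E2F proteins bind DNA at the promoters of genes needed for DNA synthesis and cell division. E2F1, E2F2 and E2F3 are known as activators that drive entry into S phase. E2F4 and E2F5 repress mainly by recruiting the pocket proteins p107 (encoded by Rbl1) and p130 (encoded by Rbl2). E2F6 represses through Polycomb-type complexes without pocket proteins. The atypical E2F7 and E2F8 repress without a pocket protein and without the dimer partners encoded by Tfdp1 and Tfdp2. Several E2F genes are themselves E2F targets. Pocket proteins are inactivated when cyclin-dependent kinases phosphorylate them, and p130 is best known from cells that have left the cycle.

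Each gene is represented by its brightest probe set, the one with the largest mean of the 4 arrays. Of the 10 genes, 6 were lower with vorinostat, 0 were higher and 4 did not pass an adjusted p of 0.05 in limma, a moderated linear model with Benjamini-Hochberg adjustment over all probe sets tested. Across all genes 18.9% were called lower and 20.9% higher. The atypical repressors E2f7 and E2f8 and the pocket protein gene Rbl1 fell most, by 3.45-fold to 4.95-fold, followed by the activators E2f1 and E2f3 and by E2f6. The activator E2f2, the pocket-dependent repressors E2f4 and E2f5 and the pocket protein gene Rbl2 did not pass. The falls were thus found in activators (2 of 3) as well as in repressors (3 of 5). In each array-omission fit the changes of the 6 genes that fell stayed negative. They ran from -2.36 (E2f7 without DMSO 2) to -0.75 (E2f6 without DMSO 1).

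At the level of single probe sets, 9 of 22 were lower and 0 higher, where 15.7% of all probe sets were lower and 16.5% higher. At an unadjusted p below 0.05 in limma, 11 were lower and 2 higher. The count over all probe sets at that threshold was not made. By gene, 6 of the 10 were lower and 1 higher there, against 4115 lower and 4749 higher of all 18193 genes. The arrays of the groups did not overlap at 14 of the 22 probe sets and in 7 of the 10 genes, shares near the 62.8% and 68.9% found over all probe sets and genes. Values below are the deposited log2 expression values. Changes are vorinostat minus DMSO on that log2 scale, with the standard error (SE) of the fit, and n = 2 arrays per group throughout.

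**Figure D1:**
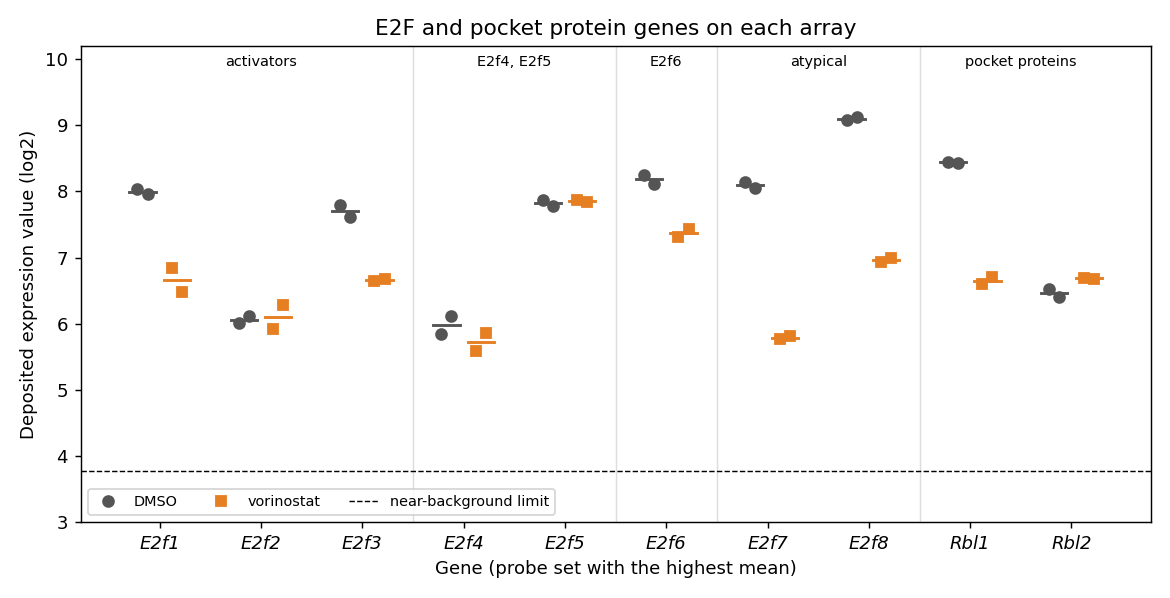
Deposited log2 expression value of each gene on each array, for its brightest probe set. Circles are DMSO arrays, squares vorinostat arrays, short bars group means, and the dashed line is the limit of 3.78 below which a value is near background. The vorinostat arrays lie below the DMSO arrays for E2f1, E2f3, E2f6, E2f7, E2f8 and Rbl1 and overlap them for E2f2, E2f4 and E2f5.

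Among the activators, E2f1, the founding member of the family, was measured by 3 probe sets. At the brightest (1431875_a_at) it stood at 8.03 and 7.96 on the DMSO arrays and at 6.84 and 6.49 on the vorinostat arrays. Both vorinostat arrays were below both DMSO arrays, and they differed from each other more (SD 0.25) than the DMSO arrays did (SD 0.05). The change was -1.33 (SE 0.13, limma adjusted p = 0.00147), a 2.52-fold fall. The second probe set (1417878_at) read 7.38 on each DMSO array and 6.35 and 6.19 with vorinostat, a change of -1.10 (SE 0.09, limma adjusted p = 0.000775). The dimmest (1447840_x_at) moved from 4.46 on each DMSO array to 4.23 and 4.15, and its change of -0.27 did not pass (limma adjusted p = 0.0547). Its suffix marks a probe set whose probes can match other transcripts.

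E2f2, the activator known best from blood cell lineages, did not pass at either of its probe sets. The brighter (1436434_at) read 6.01 and 6.11 with DMSO and 5.92 and 6.29 with vorinostat, so that the vorinostat arrays enclosed the DMSO arrays. Its change was 0.04 with a 95% interval from -0.31 to 0.40 (limma adjusted p = 0.853). Over the omission of single arrays that change ran from -0.14 without vorinostat 2 to 0.23 without vorinostat 1. The dimmer probe set (1455790_at) changed by -0.01, with an interval from -0.23 to 0.21. These intervals hold no change as large as those of the other activators at their brightest probe sets.

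E2f3, the third activator, fell at its brighter probe set (1434564_at) from 7.80 and 7.61 with DMSO to 6.65 and 6.68 with vorinostat. The groups were apart, and the change of -1.04 (SE 0.10, limma adjusted p = 0.00113) was a 2.05-fold fall. A dimmer probe set (1427462_at) read 5.46 and 5.68 with DMSO against 5.32 and 5.48 with vorinostat. There the groups overlapped, and the change of -0.17 did not pass (limma adjusted p = 0.335). The platform annotation does not say which E2f3 transcripts each probe set detects, so which isoform fell is not known from these values.

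Of the pocket-dependent repressors, E2f4 had a single probe set (1451480_at), at 5.84 and 6.12 with DMSO and at 5.58 and 5.86 with vorinostat. The groups overlapped narrowly, and the spread within each group (SD 0.20 in both) was close to the change of -0.25. That change did not pass (SE 0.14, limma adjusted p = 0.253), and its 95% interval reached from -0.61 to 0.11. E2f5 was measured by 3 probe sets, and none of them passed. The brightest (1417444_at) read 7.87 and 7.79 with DMSO and 7.87 and 7.84 with vorinostat, a change of 0.03 with an interval from -0.18 to 0.23. The other probe sets of E2f5 changed by -0.07 (1460207_s_at) and 0.23 (1447625_at), with limma adjusted p of 0.63 and 0.253.

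E2f6, the repressor that works with Polycomb-type proteins, fell at its brighter probe set (1448835_at) from 8.25 and 8.12 to 7.31 and 7.43. The change of -0.82 (SE 0.09, limma adjusted p = 0.00222) was a 1.76-fold fall, the smallest among the 6 genes that passed. Its dimmer probe set (1437914_at) moved from 5.20 and 5.23 to 4.98 and 4.97. The groups were apart there too, but the change of -0.24 did not pass (limma adjusted p = 0.0694).

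The atypical repressors showed the largest falls of the family. E2f7 (1437187_at, its only probe set) stood at 8.15 and 8.05 with DMSO and at 5.77 and 5.81 with vorinostat. Its change of -2.31 (SE 0.08, limma adjusted p = 0.000167) was a 4.95-fold fall, and 0.373% of all probe sets had a lower change. E2f8 fell at the brighter probe set (1436186_at) from 9.08 and 9.13 to 6.93 and 6.99. That was a change of -2.14 (SE 0.08, limma adjusted p = 0.000174), or 4.41-fold, with 0.517% of probe sets lower. At its dimmer probe set (1444319_at) E2f8 went from 5.02 and 5.04 to 3.25 and 3.47. The vorinostat values there are near background, at most 1 log2 unit above the brightest reading of a control whose transcript was not added, so this fall is given as at least 2.38-fold. E2F7 and E2F8 are known to act together on shared promoters, and here the 95% intervals of their changes overlapped, at -2.52 to -2.10 for E2f7 and -2.34 to -1.94 for E2f8.

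**Figure D2:**
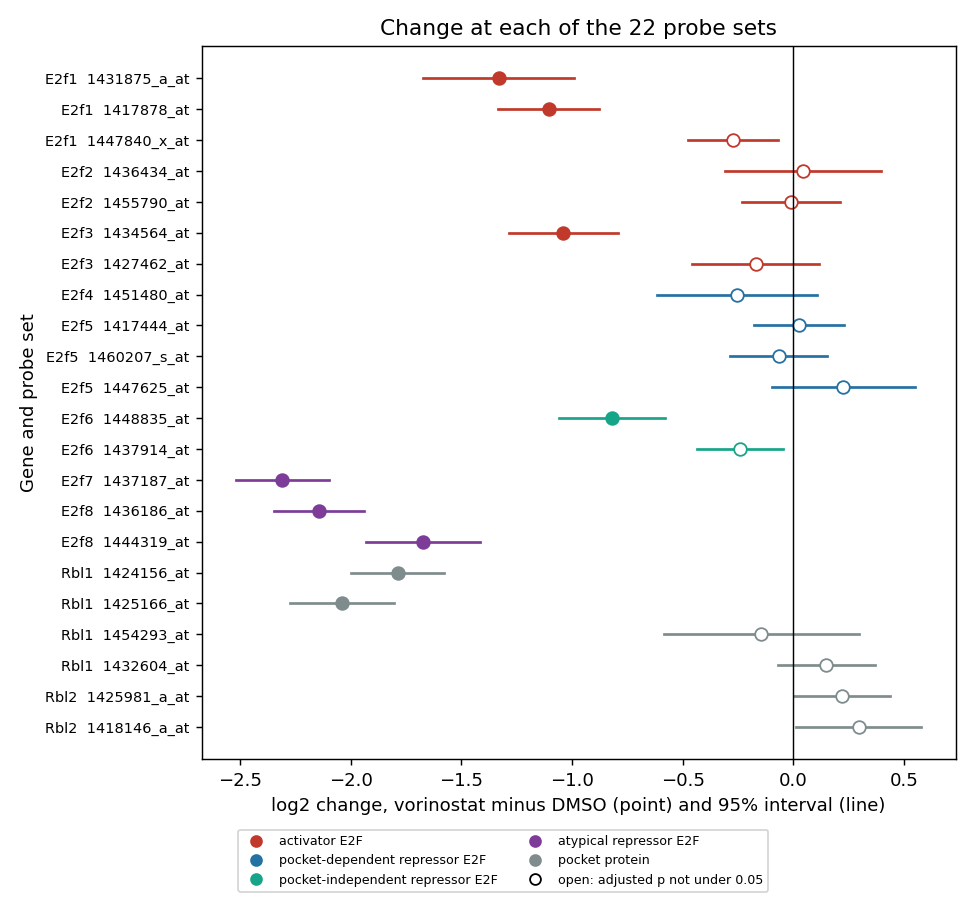
Log2 change (vorinostat minus DMSO) at each of the 22 probe sets, with points for the estimate, lines for the 95% interval and colours for the role of the gene. Filled points passed an adjusted p of 0.05. The 9 filled points belong to E2f1, E2f3, E2f6, E2f7, E2f8 and Rbl1, and dimmer probe sets of E2f1, E2f3, E2f6 and Rbl1 lie nearer to 0.

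The 2 pocket protein genes differed. Rbl1, which encodes p107 and is known as an E2F-responsive gene of cycling cells, fell at its brightest probe set (1424156_at) from 8.44 and 8.43 to 6.60 and 6.70. The change was -1.79 (SE 0.08, limma adjusted p = 0.000228), a 3.45-fold fall. Its next probe set (1425166_at) went from 6.32 and 6.23 to 4.16 and 4.31, a change of -2.04 (SE 0.09, limma adjusted p = 0.000225). The remaining probe sets of Rbl1 (1454293_at and 1432604_at) read between 2.36 and 3.20 on all arrays, near background in both groups, and carry no fold change. Rbl2, which encodes p130, stood at 6.53 and 6.40 with DMSO and at 6.69 and 6.68 with vorinostat (1425981_a_at). Both vorinostat arrays were above both DMSO arrays, but the change of 0.22 (SE 0.09) did not pass (limma adjusted p = 0.114). A dimmer Rbl2 probe set (1418146_a_at) read 5.52 and 5.27 against 5.66 and 5.73, and its change of 0.30 (SE 0.11) did not pass either (limma adjusted p = 0.108). These are the 2 member probe sets that were higher at an unadjusted p below 0.05. When dim probe sets were left out of the test, Rbl2 passed with the same change of 0.22 (limma adjusted p = 0.0461). The 95% intervals of Rbl1 (-2.00 to -1.58) and Rbl2 (0.00 to 0.44) lay far apart, but the difference between the genes was not tested.

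The third gene of the pocket protein family, Rb1, is given for comparison and was chosen after its values were seen. Its brighter probe set (1417850_at) rose from 7.34 and 7.35 with DMSO to 8.94 and 8.66 with vorinostat, a change of 1.46 (SE 0.12, limma adjusted p = 0.000721), or 2.74-fold. A second probe set (1444400_at) was near background on all arrays. The changes in the 3 pocket protein genes therefore had different signs, with Rb1 higher, Rbl1 lower and Rbl2 not past the threshold.

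Activators and repressors were compared as classes by the median change of their genes, with no test, since the genes were chosen with results known. The median was -1.04 for E2f1 to E2f3 and -0.82 for E2f4 to E2f8, against 0.03 over all genes. With so few genes, these medians are the changes of E2f3 and of E2f6. The difference of -0.22 is therefore that between E2f3 and E2f6, and the size of the larger falls of E2f7 and E2f8 does not enter it. It ran from -0.29 to -0.15 over the 4 pairings of a vorinostat with a DMSO array, which share arrays. No order of the classes is read from it. It depended on the probe sets taken: with all probe sets of a gene averaged, it was -0.075. Both classes were mixed. Changes ran from -1.33 to 0.04 among the activators and from -2.31 to 0.03 among the repressors, so the range of the repressors held almost the whole range of the activators. Within the repressors, E2f4, E2f5 and E2f6 had a median of -0.25 and E2f7 and E2f8 a median of -2.23. The 95% intervals of E2f7 and E2f8 did not reach that of E2f1 (-1.67 to -0.99), E2f3 (-1.28 to -0.79) or E2f6 (-1.06 to -0.58), though these differences between genes were not tested. At least 2-fold falls past the threshold were found in 5 of the 10 genes, against 6.17% of all genes. With all probe sets of a gene averaged, 2 of the 10 reached that size, E2f7 and E2f8, while Rbl1 (-0.95), E2f1 (-0.90) and E2f3 (-0.60) did not. With reference-gene scaling, 3 of the 10 reached it. The share of all genes with such falls was not counted for averaged probe sets or for that scaling.

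**Figure D3:**
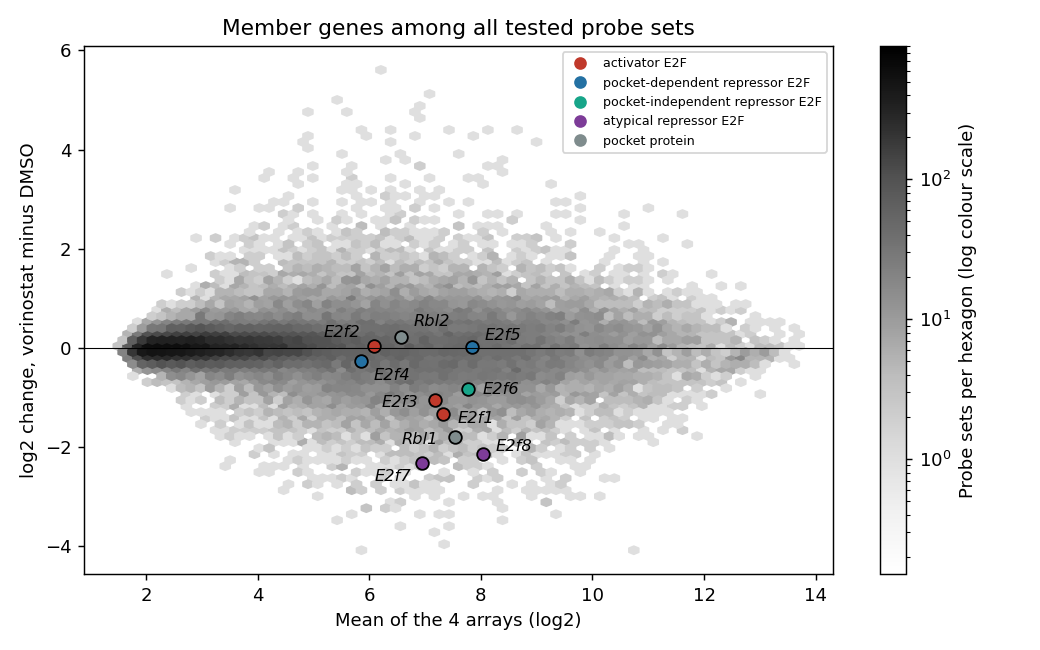
Log2 change against the mean log2 value of the 4 arrays for all probe sets tested (grey hexagons, darker with more probe sets) and for the 10 genes (coloured by role). E2f7, E2f8 and Rbl1 lie in the sparse lower part of the cloud, and E2f2, E2f5 and Rbl2 lie close to 0.

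Set against all probe sets, the changes of the family covered a wide range. A lower change than that of Rbl1 was seen at 1.04% of probe sets, than that of E2f1 at 2.58%, than that of E2f3 at 4.36% and than that of E2f6 at 6.42%. For E2f4 the share was 20.2%, for E2f5 52.0%, for E2f2 54.9% and for Rbl2 75.4%. The mean level of the 10 genes was above that of at least 66.8% of probe sets, so none of these calls rests on a gene at background. Among the 6 genes that fell, 9 of 14 probe sets passed, and the 5 that did not were each a dimmer probe set of its gene. Among the other 4 genes, 0 of 8 probe sets passed, with changes from -0.25 to 0.30.

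The calls of E2f2, E2f5 and Rbl2, which did not pass, depended on how the arrays are scaled. With scaling on reference genes, which had a mean change of -0.43, every change rises by that amount and the median gene moves from 0.03 to 0.46. E2f2 (0.48), E2f5 (0.46) and Rbl2 (0.65) were then called higher, as were 12629 of all 18193 genes, and E2f4 stood at 0.18. E2f2 and E2f5 lay close to the median gene under either scale, E2f4 below it and Rbl2 above it. The 6 falls passed under this scaling as well, at -1.88 for E2f7, -1.71 for E2f8, -1.36 for Rbl1, -0.90 for E2f1, -0.61 for E2f3 and -0.39 for E2f6. The mean of -0.43 rests largely on 2 of the 6 reference genes measured, Gusb (-1.42) and Polr2a (-0.75), and the other 4 had a mean of -0.10.

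The genes nearest to E2f7, the member with the largest change, were named by the distance over the 4 arrays of values centred on each gene's mean, which with these groups mostly reflects the size of the change. They were Mettl22 (change -2.30), Gtse1, a spindle-associated protein (-2.31), and Cenps, a centromere component (-2.36), at distances of 0.05 to 0.06 log2 units.

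Genes that act with or on the E2F proteins were described by list, with counts and medians. Over all genes 20.9% were called higher and 18.9% lower, and the median change was 0.03. At an unadjusted p below 0.05 in limma, 4749 of the 18193 genes were higher and 4115 lower. The MuvB complex binds E2F4 and p130 to silence cell cycle genes and later joins B-MYB to activate them. Among the dimer partners and the genes listed with this complex, 7 of 10 fell and 2 rose, with a median of -0.57. The list includes Mybl1 (-0.39), Mybl2 and Foxm1 (-2.75), which are not MuvB subunits and which all fell. Of the MuvB subunits, Lin9, Lin54 (-0.74) and Rbbp4 (-0.31) fell, and Lin37 and Lin52 rose. The main dimer partner Tfdp1 fell from 10.93 and 10.90 to 8.85 and 8.91, a change of -2.04 (SE 0.08, limma adjusted p = 0.00018). Its relative Tfdp2 had a change of 0.28 that did not pass (limma adjusted p = 0.0642), against 0.46 at a dimmer probe set that did (1443962_at, limma adjusted p = 0.0362). The largest falls were those of Mybl2, which encodes B-MYB (-3.29, SE 0.13), and of the MuvB subunit Lin9 (-2.85, SE 0.11). The MuvB subunits Lin37 (0.41, SE 0.10) and Lin52 (0.34, SE 0.09) rose with limma adjusted p of 0.0335 and 0.0439. Lin37 lost its call without DMSO 2 (0.30), vorinostat 1 (0.42) or vorinostat 2 (0.39), and Lin52 lost it whichever single array was left out (0.25 to 0.42) and changed by 0.11 at its other probe set.

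Of the cyclins and kinases that phosphorylate pocket proteins, 8 of 10 fell and 0 rose in limma (9 and 0 at an unadjusted p below 0.05), with a median of -1.17. The cyclin Ccna2 (-3.15, SE 0.08) and the kinase Cdk1 (-2.81, SE 0.10) fell most. The G1 cyclin Ccnd1 went from 11.17 and 11.15 to 8.78 and 9.32 (-2.11, SE 0.18). The related Ccnd2 (-0.28, limma adjusted p = 0.0672) and Ccnd3 (-0.13, limma adjusted p = 0.294) did not pass at their brightest probe sets. A dimmer probe set of Ccnd2 (1416123_at) did, at -0.40 (limma adjusted p = 0.0162). The kinase Cdk4, a partner of Ccnd1, changed by -1.30 (SE 0.08). Inhibitors of these kinases moved the other way, with 5 of 7 higher, 0 lower (1 lower at an unadjusted p below 0.05 in limma) and a median of 0.89. Cdkn1c, which encodes p57, rose by 3.43 (SE 0.28), and Cdkn1a, which encodes p21, by 1.69 (SE 0.16) and, at a second probe set (1424638_at), by 1.93 (SE 0.12).

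S phase genes known as E2F targets, a list chosen with earlier results of these arrays known, were lower in 27 of 27 cases, 23 of them at least 2-fold with Tyms, which fell to near background, taken at its bound of 1.78-fold. They had a median of -1.95 and a range from -3.60 (Cdc6, a replication licensing factor) to -0.53 (Pcna, the sliding clamp of DNA polymerases). Tk1, a thymidine kinase, had a change of -3.50 (SE 0.10). The list median of -1.95 lay below those of the E2F activators (-1.04) and repressors (-0.82), each the change of a single gene. It lay above that of E2f7 and E2f8 (-2.23). As the list was chosen with results known, no order is read from these medians, and their differences were not tested. In bulk RNA, fewer cells in S phase and less of the S phase transcripts per cell cannot be told apart.

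**Figure D4:**
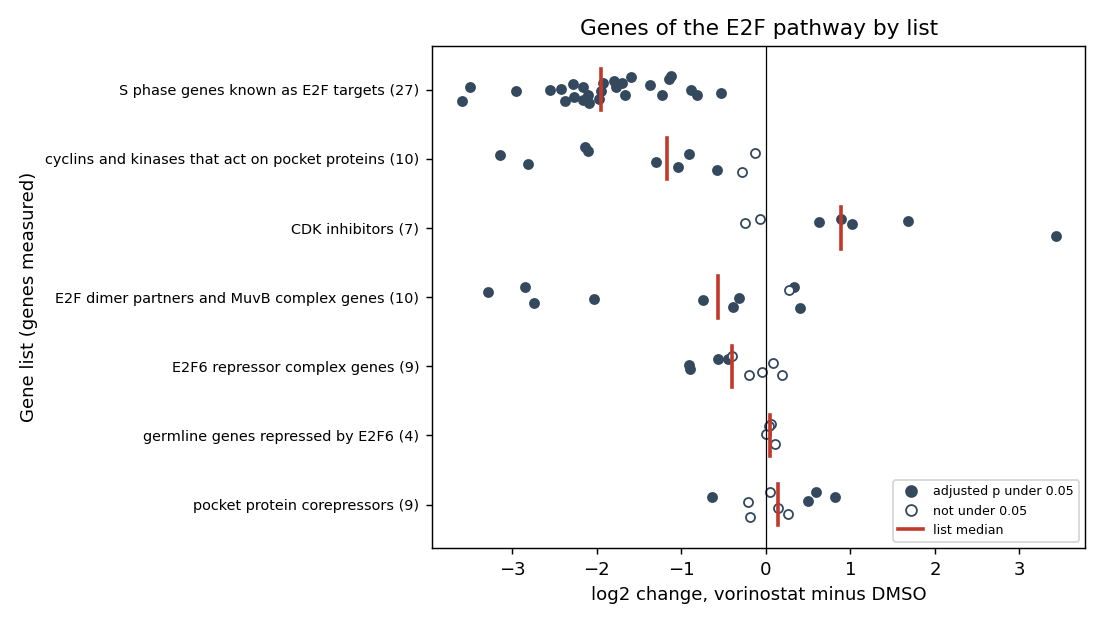
Log2 change of each measured gene in the 7 lists of the E2F pathway, with filled points past an adjusted p of 0.05, open points not past it and red bars for list medians. The 27 S phase genes lie to the left of 0, 5 of 7 CDK inhibitors lie to the right, and the 4 germline genes lie at 0 and near background.

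The complex through which E2F6 represses had 4 of 9 measured genes lower and 0 higher in limma (4 and 0 at an unadjusted p below 0.05), with a median of -0.41. Its Polycomb-type subunits L3mbtl2 (-0.91, SE 0.09) and Pcgf6 (-0.90, SE 0.08) fell by about as much as E2f6 itself. Fewer of the 9 passed without vorinostat 1 or without vorinostat 2, and fewer of all genes did so too. Germline genes that E2F6 is known to silence in somatic cells were near background on all 4 arrays in 4 of 4 measured cases, and limma called 0 of them, also at an unadjusted p below 0.05 (0). The smallest p was that of Smc1b, a meiotic cohesin subunit, which read 2.76 and 2.82 with DMSO and 2.93 and 2.86 with vorinostat (0.10, limma adjusted p = 0.405). A change below the background of these arrays could not be detected.

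Corepressors recruited by pocket proteins had 3 of 9 genes higher and 1 lower, against 20.9% and 18.9% of all genes, with a median of 0.14, and nothing is read from counts this small. The Sin3-associated Arid4b rose by 0.82 (SE 0.10). The scaffold Sin3b rose by 0.59 (SE 0.08) at its brightest probe set and by 0.47 and 0.38 at others, but had changes of 0.04 and -0.22 that did not pass at the rest. The remodelling ATPase Smarca2 was called lower (-0.64, SE 0.13) at its brighter probe set, lost that call without DMSO 1 (-0.51), DMSO 2 (-0.76), vorinostat 1 (-0.74) or vorinostat 2 (-0.53), and changed by 0.14 at its dimmer probe set.

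The labelled cell type was checked on fixed marker lists. All 6 epithelial markers, Epcam, Cdh1, Krt8, Krt18, Krt19 and Cldn4, were above background, with 2 higher (Krt19 and Cldn4) and 1 lower (Krt8) with vorinostat, and their summed linear values ranged from 8901 to 9226 with DMSO and from 6490 to 7188 with vorinostat. Of the prostate luminal markers, Hoxb13 was above background and rose by 0.54, and the androgen-responsive Pbsn was near background on all arrays. The basal markers, of which limma called 0 of 4, summed to 92.7 to 97.5 with DMSO and 101 to 108 with vorinostat. The immune markers (3 of 5 near background, Ptprc among them, and Cd3e called higher) summed to 55.5 to 59.3 and 61.0 to 64.7, and the endothelial markers (2 of 4 near background, Pecam1 and Tek, with 0 called) to 48.8 to 52.2 and 50.9 to 57.8. The fibroblast markers had 2 of 5 higher, Pdgfra (1.54) and Dcn (1.26), and 1 near background, Lum, with sums of 7275 to 7303 and 6894 to 7656. Changes of Col1a1 (-0.31) and Col1a2 (-0.21) did not pass. Col1a2, at 12.67 and 12.68 with DMSO, made up most of the fibroblast sum. With DMSO, Dcn read 9.24 and 9.13, Col1a1 6.65 and 6.73, and Pdgfra 5.38 and 5.44. Levels of different probe sets do not rank genes by expression. With 1 of 5 fibroblast markers near background and the others above it, the marker lists do not set these cells apart as purely epithelial. The part of these markers in the changes of the E2F genes was not tested.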

How the data were processed

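The authors deposited a log2 value for each probe set on each array. Of tools, the submitters' processing notes list the Transcriptome Analysis Console and RMA and give no versions. RMA, as defined, equalises the arrays' distributions, which hides any shift common to all transcripts. Array medians lay between 4.19 and 4.28. No genome build was given in the sources used here.

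The 64 control probe sets were left out. The platform annotation gave 1 symbol to 34945 of the other 45037, several to 932, and no name used here to 9160. The groups were compared with limma 3.58.1 (R 4.3.3, lmFit, eBayes, 3.26 prior degrees of freedom, two-sided, Benjamini-Hochberg over 45037 probe sets, threshold 0.05), unfiltered. The fit was also run on simulated data whose spread was drawn from its own variance estimates. That run therefore cannot test the assumptions of the model. A value under 3.78, that is 1 above the highest TrpnX control, is near background, and a fall to it is bounded by the distance to that limit. The number of arrays limits the precision.

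The genes and lists were chosen with earlier results of these data known. Named were the 10 genes, each list's 2 largest rises and falls past the threshold (or its smallest p), and the 3 genes nearest to the member with the largest change. Rb1, Tfdp1, Tfdp2, Lin54, Rbbp4, Mybl1, Foxm1, Ccnd1, Ccnd2, Ccnd3, Cdk4, Pcna, Tyms, Gusb, Polr2a and the marker genes were added after their values were seen. Some genes of the lists and 3 of 9 reference genes were not analysed here. Alternatives were a filter on dim probe sets, an intensity trend, other scalings and probe sets, the replicate block and the omission of each array.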

Additional observations from a re-analysis of the deposited data

How the results depend on the processing

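The 6 falls among the 10 genes passed in each of the 11 alternatives run, and the number of member probe sets lower was 9 to 11. Higher members numbered 0 except with probe sets above the median level only (1 gene and 1 probe set) and with reference-gene scaling (3 genes and 8 probe sets). Over all genes, the first of these settings called 3902 of 11618 higher and 3746 lower, and the second 12629 of 18193 higher and 1855 lower. The direction of E2f2 and E2f5, which did not pass, was not settled: E2f2 changed by -0.015 with arrays centred on their medians and by -0.14 to 0.23 without single arrays, E2f5 by -0.034 with centred arrays and by -0.017 to 0.069 without single arrays. E2f4 was at 0.18 with reference-gene scaling, below the median gene (0.46) and positive by the construction of that scaling. Smarca2 was at 0.14 with plain _at probe sets. The activator minus repressor difference was -0.075 with averaged probe sets and -0.26 to -0.18 without single arrays.

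Reference-gene scaling, which shifts every change by 0.43 by construction, gave 1 cyclin or kinase higher, 3 genes of the E2F6 complex higher and 2 lower, 4 germline genes higher and 6 corepressors higher with 0 lower. It called 87.2% of changed genes higher over the whole array, against 52.5% on the deposited scale. Of all 18193 genes, that scaling called 12629 higher, against 3806 on the deposited scale. The 2 rises among MuvB and partner genes became 0 with centred arrays and 0 with the replicate block. They became 3 with reference-gene scaling or with dim probe sets left out, and 1 with averaged or with plain _at probe sets. Rises over all genes, 3806 on the deposited scale, numbered 3364 with centred arrays, 3103 with the block and 4094 with averaged probe sets. With dim probe sets left out they numbered 3902 of 11618, and with plain _at probe sets 3313 of 16591. CDK inhibitors had 1 lower with dim probe sets left out, with an intensity trend, with centred arrays and with averaged probe sets. Lower calls over all genes, 3444 without these alternatives, then numbered 3746 of 11618, 3816, 3898 and 3600, in that order. Corepressors had 2 lower with an intensity trend and 0 with averaged or plain _at probe sets, where the latter had 2975 of 16591 genes lower. Without single arrays, rises among MuvB and partner genes and falls among corepressors and the E2F6 complex were called less often, as were changes over all genes. The cause of these differences was not tested.

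The replicate numbers shared by the groups do not pair the arrays by any label, and deviations of same-numbered arrays correlated at -0.06 over probe sets. With the replicate block, 6 member genes and 9 member probe sets were lower and 0 higher, 27 S phase genes were lower, and the class difference was -0.22. Over all genes the block gave 3103 higher and 2892 lower, against 3806 and 3444. Signal over background limits the germline genes and the dim probe sets of Rbl1 and E2f8.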
